A study of Mus musculus with 4 samples.

Results

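Crisp1 and Crisp2 encode a pair of cysteine-rich secretory proteins that reach the same sperm cell from different organs. They were chosen by name, by matching the deposited Ensembl identifiers to mouse gene symbols, and both (ENSMUSG00000025431 and ENSMUSG00000023930) were found among 8699 deposited genes. RNA was sequenced from spermatozoa of adult C57BL/6J mice of about 11 weeks, given nicotine (2 libraries) or saline (2 libraries). Neither dose nor route is given in the labels. Whether each library stands for its own mouse is not stated either, so p-values measure the spread among these 4 libraries, which may be technical. Sperm were pressed out of a nicked cauda epididymidis, where they are stored after maturing in the epididymal duct, and no purification from other cells is described.

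CRISP proteins pair a CAP domain with a cysteine-rich domain that can act on ion channels. In the mouse, CRISP1 is made by the epithelium of the epididymis under androgen control, is secreted into the duct and coats passing sperm, where it takes part in egg binding. CRISP2, also called TPX1, is made by the germ cells themselves in the testis and ends up in the acrosome and the tail. Mature sperm make little or no new RNA, so a Crisp2 transcript in them is a remnant of spermatid expression, while Crisp1 is known as a transcript of the epithelium around them.

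Both genes lie on the minus strand of chromosome 17 in the annotation of GRCm38, a later build than the mm8 named in the submitters' processing notes. In RefSeq's gene order 7 protein-coding genes separate them, 6 of them Esp genes, and none of the 7 is among the genes analysed here. The coding sequences are 732 bases in Crisp1 and 729 in Crisp2, and 67.8% of 717 aligned bases are identical, with no identical run over 18 bases. The closer copy of Crisp1 is Crisp3, with 89.5% identity over 711 bases. The gapless stretch of 60 coding bases in which Crisp1 and Crisp2 are most alike is shown with Crisp3 beside it. It shows how far reads can separate Crisp1 from Crisp2. Sequences are from GENCODE M21, and capitals mark bases that differ from Crisp1.
Crisp1, coding bases 406 to 465: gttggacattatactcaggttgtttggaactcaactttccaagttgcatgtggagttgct
Crisp2, coding bases 400 to 459: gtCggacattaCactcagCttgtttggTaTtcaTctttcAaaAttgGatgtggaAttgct
Crisp3, coding bases 406 to 465: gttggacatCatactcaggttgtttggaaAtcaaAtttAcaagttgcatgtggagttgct

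Even there Crisp2 differed from Crisp1 at 10 of 60 bases. Crisp3 differed at 4, but the stretch was not chosen for Crisp3, whose longest identical coding run with Crisp1 was 57 bases. Of 1389 stretches of 50 bases along the Crisp2 transcript, 0 were found in a transcript of any other gene, and of 1367 along Crisp1, 33 (2.41%) were found in Crisp3 and in no other gene. An exact read of that length can therefore be told apart between Crisp1 and Crisp2. Read length, and how reads with several matches were counted, are not given in the sources used here. Crisp3 was not analysed, and some of the Crisp1 reads could come from it, a part that depends on read length.

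The upstream regions of both genes are shown because the neighbouring paralogues are transcribed in different organs. Each runs over 250 bases up to the transcription start in RefSeq (GRCm38.p6), at chr17:40319208-40319457 for Crisp1 and chr17:40794147-40794396 for Crisp2, both on the minus strand. Capitals mark the TATA box core TATAAA on either strand.
Crisp1: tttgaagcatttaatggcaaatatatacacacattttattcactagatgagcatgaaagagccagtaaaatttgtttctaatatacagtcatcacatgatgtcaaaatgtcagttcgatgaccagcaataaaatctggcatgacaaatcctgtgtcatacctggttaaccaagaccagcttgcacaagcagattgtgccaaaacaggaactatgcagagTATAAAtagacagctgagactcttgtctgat
Crisp2: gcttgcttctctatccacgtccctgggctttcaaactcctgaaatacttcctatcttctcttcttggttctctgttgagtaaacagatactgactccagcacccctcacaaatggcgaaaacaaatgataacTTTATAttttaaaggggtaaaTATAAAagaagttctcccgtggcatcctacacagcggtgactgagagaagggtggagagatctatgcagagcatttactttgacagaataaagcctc

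The Crisp1 window holds 1 TATAAA match, 31 bases before the start, and the Crisp2 window holds 2, beginning 118 and 97 bases before it. Such a match occurs in 12.4% of 32851 RefSeq windows of the same length. Neither window holds CGTCA on either strand (core letters of the cyclic AMP response element), which occurs in 17.8% of the windows. Neither holds AGAACA (core letters of the androgen response element, in 16.1%) or GGGCGG (core of the GC box, in 32.7%). That these letters are missing from these windows says nothing about the factors.

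The libraries differed in usable depth. The deposited reads summed to 3798794 and 5216745 in nicotine replicates 1 and 2, against 3999449 and 3856022 in saline replicates 1 and 2. Of these, Lars2 and Gm42418 held 90.6% and 77.5% with nicotine and 74.9% and 75.8% with saline. Reads left for all other genes were 358477 in nicotine replicate 1 and 931578 to 1176304 in the other libraries. Because RPKM (reads scaled to gene length and to the library's total) is lowered wherever that pair takes more reads, each level is also given as a share of the remaining reads. Intervals below are exact Clopper-Pearson 95% intervals and cover counting error only.

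Crisp1 RNA did not separate nicotine from saline. It had 1284 and 15877 reads in nicotine replicates 1 and 2, against 4383 and 12228 reads in saline replicates 1 and 2. The deposited values were 239 and 2149 RPKM with nicotine, against 774 and 2240 RPKM with saline. Each group had 1 high and 1 low library, and the groups overlapped. Its order from high to low was saline replicate 2, nicotine replicate 2, saline replicate 1 and nicotine replicate 1, and the first 2 lay close together. The libraries of a group differed more than the groups did, by 9.0-fold with nicotine and 2.89-fold with saline. The group means, 1194 ± 1351 RPKM with nicotine and 1507 ± 1036 RPKM with saline (SD, n = 2 each), differed by less than either spread. In such bulk samples fewer cells of a type and less RNA per cell cannot be told apart.

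Of the reads outside Lars2 and Gm42418, Crisp1 made up 0.358% (0.339 to 0.378%) and 1.35% (1.33 to 1.37%) in nicotine replicates 1 and 2, and 0.437% (0.424 to 0.450%) and 1.31% (1.29 to 1.34%) in saline replicates 1 and 2. The spread within each group was many times the counting error. By RPKM it ranked 29 and 11 among all genes in the nicotine libraries and 18 and 6 in the saline libraries. In every library it was the most abundant per length of the 23 deposited genes of the epididymal epithelium list.

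Crisp2 RNA was higher in both nicotine libraries than in both saline libraries. It had 1002 and 3802 reads in nicotine replicates 1 and 2, against 851 and 972 reads in saline replicates 1 and 2. The deposited values were 145 and 399 RPKM with nicotine, against 117 and 138 RPKM with saline. By RPKM the groups only just failed to overlap, because nicotine replicate 1 lay close above saline replicate 2. Group means were 272 ± 180 RPKM with nicotine and 127 ± 15.2 RPKM with saline (SD, n = 2 each), a difference smaller than the spread between the nicotine libraries.

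The separation was wider for its share of reads outside Lars2 and Gm42418. Crisp2 made up 0.280% (0.262 to 0.297%) and 0.323% (0.313 to 0.334%) with nicotine, and 0.0849% (0.0793 to 0.0908%) and 0.104% (0.0979 to 0.111%) with saline. On this scale the libraries of a group lay close together and the groups far apart. By RPKM Crisp2 ranked 42 and 38 among all genes in the nicotine libraries, and 99 and 80 in the saline libraries.

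**Figure D1:**
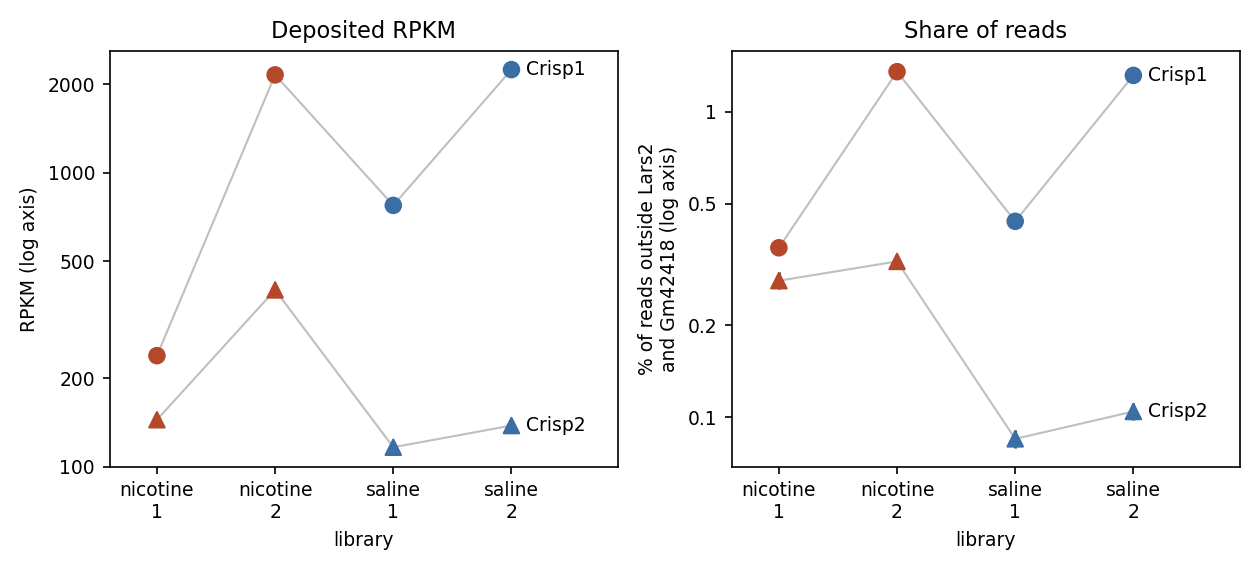
Levels of Crisp1 (circles) and Crisp2 (triangles) in each library, as deposited RPKM (left) and as a percentage of reads outside Lars2 and Gm42418 with exact 95% intervals (right), both on log axes, nicotine in red and saline in blue. Crisp1 is high in replicate 2 of both groups, at 2149 and 2240 RPKM, while the Crisp2 share is at least 0.280% in both nicotine libraries and at most 0.104% in both saline libraries.

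The test across all genes used edgeR's quasi-likelihood test with TMM scaling, which assumes that most genes do not change. For Crisp2, which rose, the log2 fold change was 2.39 ± 0.54 (SE, adjusted p = 0.0329, edgeR, 2 libraries a group), with 813 and 656 CPM in the nicotine libraries and 127 and 153 CPM in the saline libraries. Of 8375 tested genes 9.21% were called in either direction and 8.27% were called higher, and 94.9% had a lower log2 fold change than Crisp2. Its CPM did not overlap between groups, as was so in that direction for 27.4% of tested genes. Crisp1 had a log2 fold change of 0.55 ± 0.73 (adjusted p = 0.698, edgeR), with 1042 and 2738 CPM with nicotine against 653 and 1926 CPM with saline. That is not past the threshold, and the standard error is too wide to show that Crisp1 was unchanged. The median of all tested genes was -0.14.

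Scaling decided the Crisp2 call and the sign of Crisp1. With the total of reads as the scale Crisp2 had 1.09 ± 0.90 (adjusted p = 0.483) and Crisp1 -0.34 ± 0.72, where the median of all genes was -1.28. With reads outside Lars2 and Gm42418 as the scale Crisp2 had 1.67 ± 0.41 (adjusted p = 0.0810) and Crisp1 -0.034 ± 0.66, where that median was -0.77. Under both of these scalings 0 of all 8375 tested genes were called higher, so the lost call was not particular to Crisp2. Relative to the median of all genes, Crisp2 lay 2.38 to 2.57 higher under the 5 scalings and Crisp1 0.68 to 0.95 higher. Without nicotine replicate 1, the shallow library, Crisp2 had 2.24 ± 0.34 (adjusted p = 0.00148) and Crisp1 1.09 ± 0.44 (adjusted p = 0.118). Without nicotine replicate 2 the values were 2.61 ± 0.32 (adjusted p = 1.28e-06) and -0.25 ± 0.40 (adjusted p = 0.668). With saline replicate 1 or 2 left out the Crisp2 call was lost, as were nearly all calls of higher genes. The fold change of Crisp2 stayed alike, at 2.24 ± 1.37 and 2.51 ± 1.37, while Crisp1 had -0.047 and 1.52. In these fits the spread comes from the group that keeps 2 libraries, and the lone library is assumed to vary like it.

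**Figure D2:**
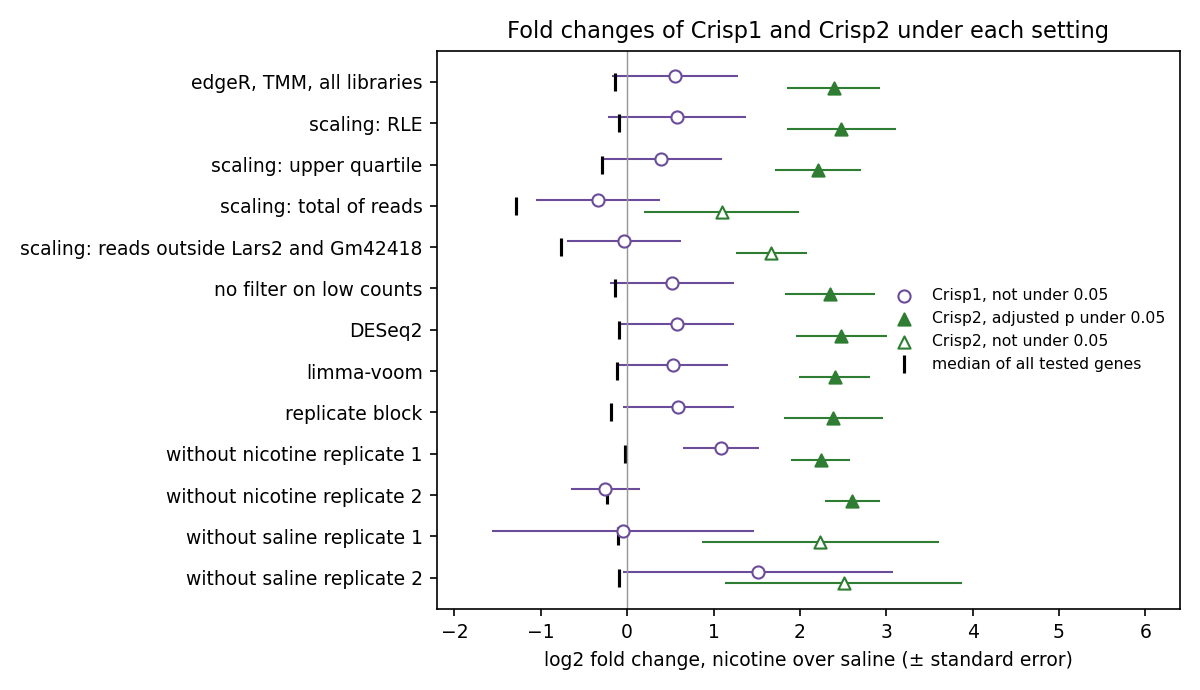
Log2 fold change of nicotine over saline with its standard error (x axis) under each setting (y axis) for Crisp1 (circles) and Crisp2 (triangles), filled where the adjusted p is under 0.05, with the median of all tested genes as a black tick. Crisp2 lies above that median in every setting shown, from 1.09 to 2.61 on the axis, while Crisp1 falls on either side of 0, from -0.25 to 1.52 with a library left out and at -0.34 when scaled by the total of reads.

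The ratio of the paralogues within a library needs no scaling factor. For each Crisp1 read there were 0.780 and 0.239 Crisp2 reads in nicotine replicates 1 and 2, against 0.194 and 0.0795 in saline replicates 1 and 2. Crisp2 thus held 43.8% (41.8 to 45.9%) and 19.3% (18.8 to 19.9%) of the reads of both genes with nicotine, and 16.3% (15.3 to 17.3%) and 7.36% (6.92 to 7.82%) with saline. The groups did not overlap, but nicotine replicate 2 lay nearer to saline replicate 1 than to its own replicate. Per length, Crisp1 RNA exceeded Crisp2 RNA in all 4 libraries, by 1.65 and 5.38 times with nicotine and by 6.64 and 16.2 times with saline.

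On the log2 scale the Crisp2 to Crisp1 ratio averaged -1.21 ± 1.21 with nicotine and -3.01 ± 0.91 with saline (SD, n = 2 each), a difference of 1.80, or 3.48-fold. An exact two-sided permutation test gave p = 0.333, the smallest that 2 libraries against 2 allow. The direction was the same with any 1 library left out, with differences from 0.95 to 2.65. Of the 8374 tested genes other than Crisp1, 3.64%, Crisp2 among them, had a ratio to Crisp1 that was higher in both nicotine libraries than in both saline libraries. Among the 31 deposited genes of the haploid germ cell list 8 did so, and 6 of 17 in the acrosome and sperm surface list, Crisp2 included.

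The ratio of Crisp2 to Crisp1 ran in the same order over the libraries as the ratio of the haploid germ cell list to the epididymal list. Smcp, Prm2 and Odf1 together held most of the summed RPKM of the germ cell list in every library. The summed RPKM of 31 haploid germ cell genes was 14.3 and 2.89 times that of 22 other epididymal genes in nicotine replicates 1 and 2, against 2.21 and 0.755 times in saline replicates 1 and 2. The Crisp2 to Crisp1 ratio by RPKM was 0.605 and 0.186 with nicotine, against 0.151 and 0.0617 with saline. Both ratios were highest in nicotine replicate 1 and lowest in saline replicate 2, and both were close in nicotine replicate 2 and saline replicate 1.

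**Figure D3:**
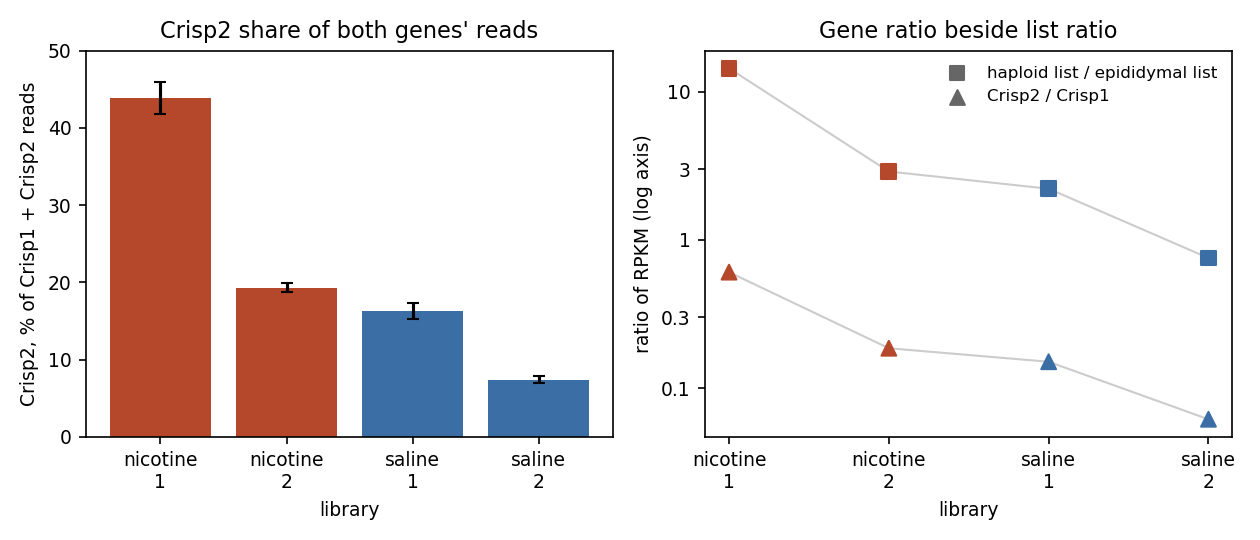
Left, Crisp2 as a percentage of the reads of both genes in each library, with exact 95% intervals. Right, on a log axis, the ratio of Crisp2 to Crisp1 by RPKM (triangles) and of the haploid germ cell list to the epididymal epithelium list by summed RPKM without either gene (squares), nicotine in red and saline in blue. Both ratios run from highest in nicotine replicate 1 (0.605 and 14.3) to lowest in saline replicate 2 (0.0617 and 0.755).

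Summed RPKM of markers of leukocytes and of connective tissue, muscle and vessel was lower in both nicotine libraries than in both saline libraries. Taken gene by gene and by CPM, which is another scale, this was so for 31% of all tested genes. When scaled by the total of reads, as RPKM is, the median log2 fold change of all tested genes was -1.28. All 13 deposited leukocyte genes together had 17.8 and 54.8 RPKM with nicotine, against 206 and 223 RPKM with saline. Cd14 and Cd68, alone among the 13, had 0 reads in nicotine replicate 1, where the median gene had 8 reads. Lyz2 had 39 reads in that library, Cd74 27 and Adgre1 15. The 11 connective tissue, muscle and vessel genes had 55.4 and 509 RPKM with nicotine, against 1876 and 1014 RPKM with saline, and Lum had 0 reads in nicotine replicate 1 and saline replicate 2. The defining sperm genes Prm1, Prm2, Tnp2, Odf1 and Smcp were present in all 4 libraries. By edgeR 1 of 13 tested leukocyte genes and 2 of 10 connective tissue, muscle and vessel genes were called lower, where 0.931% of all tested genes were, and 0 of either list higher, also at an unadjusted p under 0.05. When scaled by the total of reads, 0 leukocyte genes and 2 connective tissue, muscle and vessel genes were called lower, where 9 of all 8375 were. By reads outside Lars2 and Gm42418, 0 of either list and 0 of all tested genes were called lower. These counts also changed with a library left out. The part of these other cells in the levels of Crisp1 and Crisp2 was not tested.

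Crisp1 followed the other RNAs of the epididymal epithelium from library to library. Of the 23 deposited genes of that list (of 70), 19 had the same order of libraries by RPKM as Crisp1, itself included, an order shared by 6.64% of all deposited genes. The beta-defensin gene Defb28 had 47.7 and 678 RPKM in nicotine replicates 1 and 2, against 348 and 759 RPKM in saline replicates 1 and 2. Wfdc10, of a family of protease inhibitors, had 49.3 and 620 RPKM with nicotine, against 340 and 794 RPKM with saline. Like Crisp1, both were lowest in nicotine replicate 1 and highest in saline replicate 2. Spink8, of the Kazal family of serine protease inhibitors, had 47.5 and 632 RPKM with nicotine, against 309 and 716 RPKM with saline. Wfdc15b, another gene of the Wfdc family, had 35.0 and 398 RPKM with nicotine, against 242 and 430 RPKM with saline.

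Of the 22 tested genes of the epididymal list, Crisp1 among them, 0 were called higher and 0 lower by edgeR. Of all tested genes 8.27% were called higher and 0.931% lower. At an unadjusted p under 0.05 there was 1 gene, Spink11, at -2.36 ± 0.82 on the log2 scale. DESeq2 and limma-voom also called 0 of the 22. They called 905 and 766 of all 8375 genes higher, and 80 and 46 lower. With the replicate number added to the edgeR fit 1 of the 22 was called lower, where 279 of all 8375 genes were. The list's median log2 fold change was 0.084 with TMM, but -0.071 with upper quartile scaling, -0.50 by reads outside Lars2 and Gm42418 and -0.80 by the total of reads. It lay 0.20 to 0.48 above the median of all genes under the 5 scalings. With a library left out the list's median took either sign. It was 0.58 without nicotine replicate 1 and 0.86 without saline replicate 2, but -0.83 without nicotine replicate 2 and -0.43 without saline replicate 1. Without nicotine replicate 2, 4 of 22 genes of the list were called lower, where 824 of all 8519 tested genes were.

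Within that list Crisp1 took a larger part with nicotine. Its RPKM was 73.1% and 58.0% of the summed RPKM of the 22 others in nicotine replicates 1 and 2, against 38.3% and 47.4% in saline replicates 1 and 2. The whole range over the libraries was 1.91-fold, far less than that of Crisp1 itself. The mean difference was 0.61 on the log2 scale, and 0.44 to 0.78 with any 1 library left out. Taken 1 by 1, 19 of the 22 others had a ratio to Crisp1 that was lower in both nicotine libraries, as had 33.4% of tested genes. No test of this difference was run, since the exact permutation test cannot go below 0.333 with 2 libraries a group.

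Crisp2 kept a similar proportion to the summed RNA of haploid germ cell genes in all 4 libraries, although few of these genes shared its exact order of libraries. All 31 were highest by RPKM in nicotine replicate 2, as Crisp2 was. Of the 31, 16 were lowest in saline replicate 2, 13 in nicotine replicate 1 and 2 in saline replicate 1, where Crisp2 was lowest. The full order of Crisp2 was shared by 2 of 31, and by 2.33% of all deposited genes. The RPKM of Crisp2 was 3.08% and 3.73% of the summed RPKM of 31 other genes of that list in nicotine replicates 1 and 2, against 2.61% and 3.87% in saline replicates 1 and 2. These groups overlapped, and the whole range was 1.48-fold. The mean log2 difference was 0.093, less than the spread of 0.40 (SD) between the saline libraries. Set against the epididymal list instead, Crisp2 varied 12.9-fold over the libraries, and Crisp1 set against the germ cell list varied 12.3-fold.

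**Figure D4:**
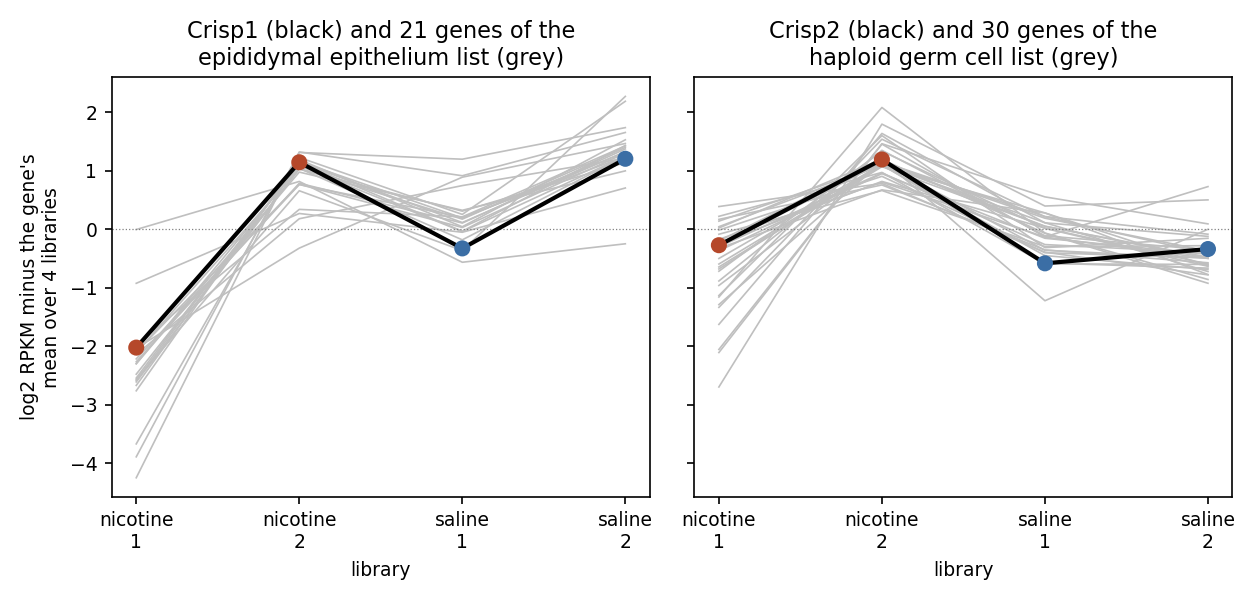
Log2 RPKM in each library (x axis) minus the gene's own mean over 4 libraries (y axis), for Crisp1 with 21 genes of the epididymal epithelium list (left) and Crisp2 with 30 genes of the haploid germ cell list (right), leaving out genes with 0 reads in a library. Crisp1 lies within the band of its list, low in nicotine replicate 1, and Crisp2 within the band of its list, with its peak in nicotine replicate 2.

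Of 29 tested genes of the haploid germ cell list 19 were called higher and 0 lower by edgeR, 0 lower also at an unadjusted p under 0.05 (8.27% of all tested genes were called higher), with a median log2 fold change of 2.06 beside 2.39 for Crisp2. The list's median was positive under all 5 scalings. When scaled by the total of reads or by reads outside Lars2 and Gm42418, 0 genes of the list were called. Under both, 0 of all 8375 tested genes were called higher. With either saline library left out nearly all calls of higher genes were lost, in this list as over all genes. Smcp, of the mitochondrial capsule, had 1686 and 3290 RPKM with nicotine, against 1026 and 966 RPKM with saline. Odf1, of the outer dense fibres of the tail, had 1195 and 2011 RPKM with nicotine, against 680 and 675 RPKM with saline. Both rose, as Crisp2 did, and were higher per length than Crisp2 in every library.

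The protamine genes, whose products pack sperm DNA, did not separate by RPKM. Prm2 had 526 and 2266 RPKM with nicotine, against 1169 and 793 RPKM with saline (log2 fold change 1.64 ± 0.58, adjusted p = 0.111, edgeR, n = 2 per group). Prm1 had 242 and 484 RPKM with nicotine, against 368 and 197 RPKM with saline (adjusted p = 0.0697). Tnp2, a transition protein that precedes the protamines, had 174 and 363 RPKM with nicotine, against 209 and 137 RPKM with saline, and rose by 2.05 ± 0.53 with TMM scaling (adjusted p = 0.0388). In all 3 genes nicotine replicate 1 lay below saline replicate 1 by RPKM, whereas Crisp2 lay above it. The side of saline replicate 1 on which a gene lay depends on the scale. RPKM is lowered most in nicotine replicate 1, where Lars2 and Gm42418 held 90.6% of reads. A scale multiplies all genes of a library alike, so the difference from Crisp2 does not depend on it. Crisp2 had 1002 reads in nicotine replicate 1 against 851 in saline replicate 1. Prm2 had 1788 against 4180, Prm1 431 against 691 and Tnp2 363 against 459. In CPM with TMM scaling Prm2 had 1637 ± 263 with nicotine against 526 ± 136 with saline (SD, n = 2 each). Prm1 had 277 ± 103 CPM with nicotine against 79.5 ± 33.1 CPM with saline.

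In the acrosome and sperm surface list Crisp2 was the most abundant gene per length by a wide margin. The next 4 by mean RPKM, Dkkl1, Adam5, Ace and Spaca9, had at most 21.7 RPKM in any library. Of 16 tested genes of the list 8 were called higher and 0 lower, where 8.27% of all tested genes were called higher and 0.931% lower. None was called under the scalings by total reads and by reads outside Lars2 and Gm42418, where 0 of all 8375 tested genes were called higher. With either saline library left out the calls of the list were lost, as were nearly all calls of higher genes. Adam5, a surface protein of sperm, had 8.50 and 21.1 RPKM with nicotine, against 7.43 and 5.72 RPKM with saline, and rose by 2.51 ± 0.49 (adjusted p = 0.0329, edgeR). Dkkl1, an acrosomal protein related to Dickkopf factors, and Ace, angiotensin-converting enzyme, rose by 2.16 ± 0.52 and 1.91 ± 0.49, and Spaca9 had 1.90 ± 0.59 (adjusted p = 0.0716).

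Among the listed channels and partners on which CRISP proteins are known to act, most tested CatSper genes and Ggn were called higher, as Crisp2 was. Ryr2 and Map3k11 were not, with log2 fold changes below 0. CatSper, the calcium channel of the sperm tail, is reported in the mouse to be inhibited by CRISP1. Of 9 tested genes of this list (11 deposited of 16) 6 were called higher and 0 lower: Catsper2, Catsperb, Catsperg1, Catsperg2 and Catspere2, which encode channel subunits, and Ggn, a germ cell protein reported to bind CRISP2. Of all tested genes 8.27% were called higher. The log2 fold changes of these 6 ran from 2.04 to 2.92. By the scalings on total reads or on reads outside Lars2 and Gm42418, 0 were called, where 0 of all 8375 tested genes were called higher. With either saline library left out their calls were lost, as were nearly all calls of higher genes. Catsperg1 and Catsperg2 are close copies, so their reads may be shared. The other 3 tested genes, Catsperz, Map3k11 and Ryr2, had log2 fold changes of 0.94, -1.07 and -1.11 and were not called.

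Of 15 genes of the CAP superfamily, to which both belong, 4 are among the genes analysed here. The other two were sparse. Pi16 had 8 and 17 reads with nicotine, against 50 and 15 reads with saline. Crispld2 had 10 and 14 reads with nicotine, against 58 and 17 reads with saline. Both were highest in saline replicate 1, and neither passed the threshold (adjusted p = 0.883 and 0.830, edgeR).

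The genes whose profiles over the 4 libraries lay nearest to each paralogue were ranked among 4187 genes, by the root mean square difference of log2 CPM after each profile was centred on its own mean. Nearest to Crisp1 were Adam7 (0.10), an epididymal membrane protein that is passed to sperm, Cuzd1 (0.20), Pdzk1ip1 (0.20), ENSMUSG00000091744 (0.20) and the beta-defensin gene Defb2 (0.20). Adam7 had 220 and 2683 reads with nicotine, against 882 and 2293 reads with saline. Nearest to Crisp2 were Gm16835 (0.029), the transcription factor gene Stat4 (0.053), the nucleoplasmin gene Npm3 (0.076), Actl7a (0.077), an actin-like protein of the sperm head, and Ccdc158 (0.085). Actl7a had 52 and 195 reads with nicotine, against 48 and 51 reads with saline. Gm16835 had only 20 and 76 reads with nicotine, against 14 and 17 with saline, and Stat4 17 and 58 against 12 and 14. The ranking takes no account of counting error, so the order among such sparse genes is uncertain. Between Crisp1 and Crisp2 themselves the difference was 1.17, with 2920 genes nearer to Crisp1 than Crisp2 was. Adam7 and Defb2 belong to the epididymal list.

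Pgk2, the phosphoglycerate kinase gene of male germ cells, is the nearest gene to Crisp1 on the chromosome that was analysed here, with Crisp3 between them. It had 153 and 302 RPKM with nicotine, against 157 and 122 RPKM with saline. Its highest library was nicotine replicate 2 and its lowest saline replicate 2, unlike Crisp1, which was highest in saline replicate 2.

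RPKM of Crisp2 depends on the gene length used. The deposited lengths were 1416 bases for Crisp1, equal to its only transcript in GENCODE M21, and 1825 bases for Crisp2, which has 8 transcripts there. With the 1438 bases of its first transcript every Crisp2 RPKM would be 1.27 times higher, and with all 2818 exonic bases it would be 1.54 times lower. Such a change multiplies all libraries alike and leaves the comparison of nicotine with saline as it is.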

How the data were processed

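The authors deposited 1 table per library with Ensembl identifier, gene length, reads and RPKM. CASAVA, TopHat and mm8 are named, without a role or version, per the submitters' processing notes; the sources used here give no counting tool, annotation or strand setting. The deposited read column was handled as estimated counts because its last line, which names no gene, holds the RPKM factor. That line was left out, the gene lines were whole, and rounding changed nothing. RPKM, normalised by the authors, equalled reads over length and library total. Symbols matched 8688 of 8699 identifiers. Reads were tested with edgeR 4.0.16 (R 4.3.3) with TMM scaling, filterByExpr with a minimum count of 10, and Benjamini-Hochberg adjustment over 8375 genes at 0.05. CPM are reads scaled to the TMM-adjusted library size, and standard errors are the log2 fold change over the square root of F. The code was tested on simulated data. Alternatives were other scalings, no filter, DESeq2 1.42.0, limma-voom (limma 3.58.1), a replicate block and each library left out. Alignments used Biopython 1.88.

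Named genes were both members, all CAP genes, the 5 most abundant genes of 3 lists, the channel list, and the 5 genes nearest to each member. Values of Spink11, Pgk2, Cst8, Clu and of single leukocyte and connective tissue markers were picked after they were seen. The same holds for the order of Aqp9 and for the order and reads of Eppin. Members and the 7 lists were chosen with earlier results of these data known. H1f7 was matched as H1fnt.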

Additional observations from a re-analysis of the deposited data

How the results depend on the processing

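Over all genes 693 were higher and 78 lower, with 1986 at an unadjusted p under 0.05. These numbers were 0 and 9 when scaled by the total of reads (889 unadjusted), 0 and 0 by reads outside Lars2 and Gm42418 (2523 unadjusted), and 1078 and 279 with a replicate block, while limma-voom gave 46 lower. With 1 library left out they ran from 0 to 1515 higher and from 9 to 824 lower. The log2 fold change of Crisp1 turned to -0.34 and -0.034 under the first 2 of these scalings, and ran from -0.25 (without nicotine replicate 2) to 1.52 with a library left out. That of Crisp2 stayed positive, with 1.09 and 1.67 under those scalings and 2.24 to 2.61 with a library left out, and kept its call under median-of-ratios and upper quartile scaling, no filter, DESeq2 (adjusted p = 0.000316), limma-voom (adjusted p = 0.0135) and the replicate block. The paralogues' ratio moved by less than the spread with a pseudocount of 0.5, RPKM or the block, and ran from 0.95 to 2.65 with a library left out. Crisp1 over the rest of its list ran from 0.44 to 0.78, and Crisp2 over its list from -0.19 to 0.38. The cause of these shifts was not tested.

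Replicate numbers are shared between groups, but no label ties equal numbers to a litter, batch or day. Deviations from group means correlated at 0.173 across genes between equal numbers. With the replicate block Crisp1 had 0.59 and Crisp2 2.39 (adjusted p = 0.000551). The block also called 1 of 22 epididymal genes lower, where TMM scaling without it called 0. Of all 8375 tested genes the block called 279 lower, against 78 without it, so the 1 gene is no result about the list. Nicotine replicate 1, with a median of 8 reads per gene, limits what can be seen of sparse genes.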

Other observations

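A few genes of the epididymal list departed from Crisp1 in their order of libraries or in their spread. Spink11, Aqp9 and Eppin were higher by RPKM in both saline libraries than in both nicotine libraries. By CPM, another scale, 31% of all tested genes lay that way, so this is no result about the list. Of these, Spink11 had only 0 and 6 reads with nicotine, against 25 and 29 with saline. Eppin had 2 and 9 reads with nicotine, against 16 and 23 with saline. Cst8, a cystatin-related gene, had 7 and 17 reads in nicotine replicates 1 and 2, against 5 and 6 reads in saline replicates 1 and 2, and was the only one of the 23 not lowest in nicotine replicate 1 by RPKM. Its order of libraries by RPKM was that of Crisp2. Clu, which encodes the secreted chaperone clusterin, had 13.2 and 124 RPKM with nicotine, against 60.9 and 379 RPKM with saline. It kept the order of Crisp1 but differed between saline libraries by more than Crisp1 did.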
